A study of Mus musculus with 12 samples.

Results

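Bdnf, the other neurotrophins and their receptors were followed across the prefrontal cortex and striatum of mice that drank ethanol by free choice. The members were every probe set that the platform annotation gave a single one of the symbols Bdnf, Ntf3, Gdnf, Ntrk2, Ntrk3 and Ngfr, which came to 22 of the 45101 probe sets on the array. Bdnf had 2 probe sets, Ntrk2 8, Ntrk3 8, Ngfr 3 and Gdnf 1. No probe set carried the symbol Ntf3 in the annotation used here, so Ntf3 was not analysed here and 5 of the 6 genes were measured.

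The 4 groups of 3 arrays each were striatum of inflexible drinkers, striatum of light drinkers, prefrontal cortex of inflexible drinkers and prefrontal cortex of light drinkers. All were male Swiss mice that started at 6 weeks of age and were 22 weeks old at the end. All had been offered water beside ethanol solutions of 5 and 10% for 10 weeks, had then gone 2 weeks without ethanol, got it back for 2 weeks, drank it with 0.005 g/L of bitter quinine for 2 weeks, and, per the labels, had 1 further week of plain choice, which the labels' total of 16 weeks and final age do not count. Inflexible drinkers chose ethanol at every stage, the bitter one included, and their mean blood ethanol was 113 ± 11.3 mg/dL per the labels. Light drinkers drank mostly water, and theirs was 48 ± 13.3 mg/dL (the labels do not say what the error is). The class of a mouse was set by its own drinking, so a trait present before drinking and an effect of the ethanol drunk cannot be told apart. Water-only mice and mice that gave up ethanol once quinine was added were not analysed here. The labels give 1 RNA pool concentration per group, so the 3 arrays of a group may be hybridisations of 1 pool of several mice. All p-values then cover the spread between arrays, which may be technical, and not that between mice.

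Neurotrophins are secreted growth factors that keep neurons alive and adjust their synapses. BDNF acts through TrkB, the receptor tyrosine kinase encoded by Ntrk2, and NT-3, encoded by Ntf3, acts mainly through TrkC, encoded by Ntrk3. The p75 receptor, encoded by Ngfr, binds all neurotrophins and, together with sortilin, their precursors. Ntrk2 also gives rise to a short form without the kinase domain, which is abundant in astrocytes. In the adult brain cortical neurons make most of the BDNF found in the striatum and carry it there along their axons, while striatal neurons carry its receptor. GDNF, a growth factor of another family, signals through Ret and supports dopamine neurons that project to the striatum.

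Values are the deposited probe set values, used as log2 values. The error of a group mean is the SD over its 3 arrays, and the error of a difference is the SE from limma, a linear model fitted across all probe sets on the array. A difference was called where the p adjusted by Benjamini and Hochberg's method over 45037 probe sets was below 0.05. Array medians lay between 3.12 and 3.14. Of the 22 member probe sets, 11 had a mean over the 12 arrays of at least 4, and the other 11 had means from 2.87 to 3.38, near or below those medians, where this kind of value is compressed and real differences are understated. The level of a probe set depends on its probes, so levels were compared between groups and never between probe sets.

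Several facts of the arrays bear on the members. The mean of 18 spiked hybridisation control probe sets lay between 8.36 and 9.30 on 5 arrays and between 6.47 and 7.06 on the other 7. Striatum of inflexible drinkers had 2 high-control arrays and 1 low-control array, and each other group had 1 high and 2 low. Comparisons with striatum of inflexible drinkers are thus unbalanced in control level. Of the 11 member probe sets with a mean of at least 4, 9 were lower and 2 higher on the high-control arrays than on the low-control arrays. What set the control level is not given in the sources used here. The labelled regions could be told apart by their markers: 12 of 12 measured markers of medium spiny neurons, the main neurons of the striatum, were called higher in striatum than in prefrontal cortex in both classes, beside 0.561% of genes in inflexible and 2.18% in light drinkers. Their summed linear level was 2010 to 2080 in striatum of inflexible drinkers and 1460 to 1550 in striatum of light drinkers, against 692 to 703 in prefrontal cortex of inflexible drinkers and 343 to 367 in prefrontal cortex of light drinkers. Of these 12, 7 were called higher in prefrontal cortex of inflexible than of light drinkers, beside 0.577% of genes, as were 5 of 9 myelin genes, whose summed level was 1510 to 2090 in inflexible and 625 to 961 in light drinkers. Ttr, a gene of the choroid plexus, averaged 10.78 ± 0.43 in prefrontal cortex of inflexible drinkers and 4.53 ± 0.17 in that of light drinkers. These shifts accompany every prefrontal drinking difference below, and their part in those differences was not tested. In striatum, summed levels in inflexible and light drinkers were 854 to 989 and 649 to 772 for interneuron markers. For septum and diencephalon markers, 5 of 7 with a mean under 4, they were 110 to 129 and 151 to 164. Neurod6, a cortical marker, differed there by -0.51 ± 0.09 (adjusted p = 0.233 with limma), beside a median of 0.04 for its list of 9. None of these markers was called in striatum, and their part in striatal drinking differences was not tested. In bulk tissue, fewer cells of a type and less RNA per cell cannot be told apart.

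Between inflexible and light drinkers none of the 22 member probe sets was called in either region, and between regions 1 was. In striatum 0 of 22 passed, beside 0.0111% of all probe sets, and in prefrontal cortex 0 of 22, beside 0.826%. With the replicate number as a block, 1 prefrontal member probe set was called, Ntrk2 1458622_at (adjusted p = 0.0369 with limma). That block also groups the striatal arrays, whose numbers were not taken as pairs. In the 6 prefrontal arrays alone the block called a different one, Ntrk2 1435305_at (adjusted p = 0.0383 with limma). At an unadjusted p under 0.05 there were 1 striatal and 3 prefrontal member probe sets (1588 and 3426 of all tested). None passed the test of whether the drinking difference itself differed between regions, beside 0.313% of all probe sets. In that test 4 had an unadjusted p under 0.05 (2532 of all tested). The leading Ntrk2 probe set, the one of its gene with the highest mean over 12 arrays, fell in striatum relative to prefrontal cortex in both classes. It was the 1 of 22 called in inflexible drinkers, beside 0.773% of all probe sets called and 0.433% called lower. It was also the 1 of 22 called in light drinkers, beside 3.32% called and 1.86% called lower. Arrays of inflexible and light drinkers did not overlap for 5 of 22 member probe sets in striatum, beside 7.84% of all probe sets, and for 4 of 22 in prefrontal cortex, beside 12.9%. Among those with a mean of at least 4 these counts were 3 of 11, beside 6.76%, and 2 of 11, beside 18.4%. Striatal and prefrontal arrays did not overlap for 6 of 22 in inflexible drinkers, beside 11.5%, and for 5 of 22 in light drinkers, beside 16.3%. With a mean of at least 4 these were 3 of 11, beside 16.8%, and 3 of 11, beside 25.6%. Probe sets of 1 gene are not independent of each other, so these counts rest on few genes. The median difference over the 22 was -0.02 in striatum and -0.01 in prefrontal cortex, beside 0.00 over all probe sets in each.

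**Figure D1:**
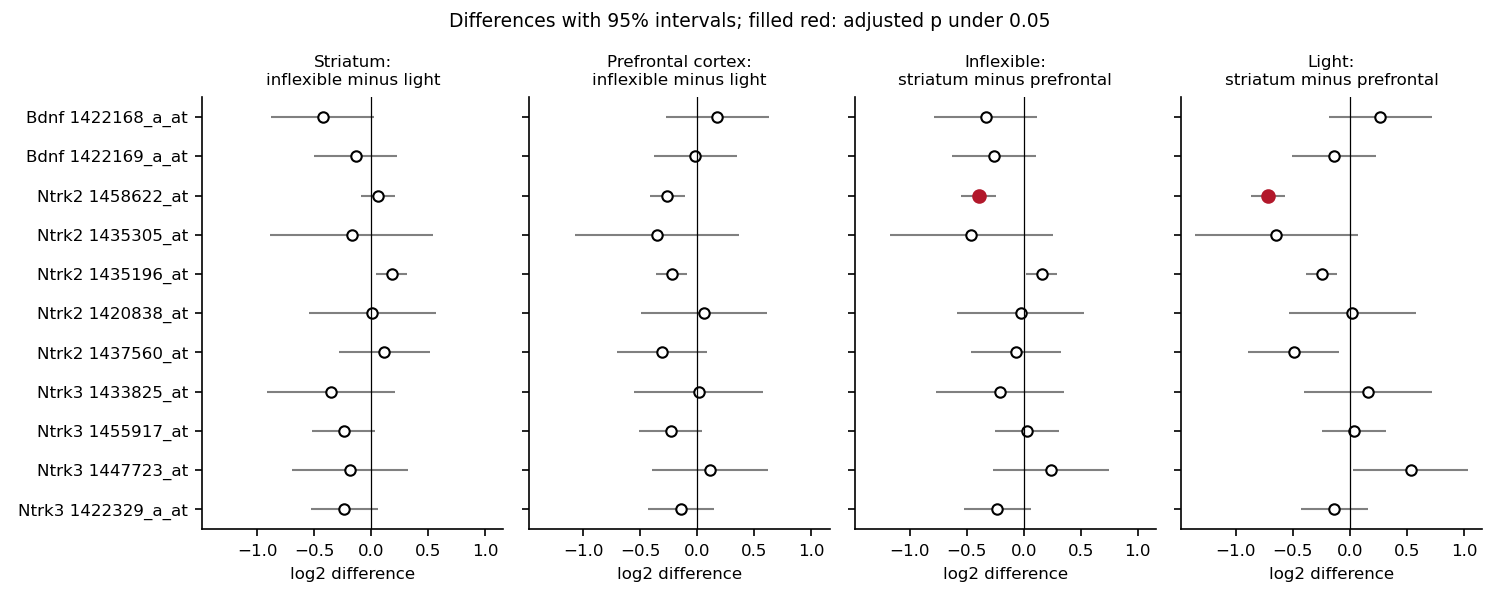
Differences with 95% intervals (x axis, log2) for the 11 member probe sets with a mean of at least 4 (y axis), in 4 panels: inflexible minus light drinkers in striatum and in prefrontal cortex, then striatum minus prefrontal cortex in inflexible and in light drinkers. The filled red points are the called differences of the leading Ntrk2 probe set, -0.39 and -0.72, and all open points missed the threshold.

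Bdnf encodes the ligand of TrkB and lies on mouse chromosome 2 at positions 109674700 to 109727043 of GRCm38.p6, with 12 RefSeq transcripts that start at several alternative promoters. Its transcription is known to follow neuronal activity through CREB, a factor that binds the cAMP response element TGACGTCA or its half-site TGACG. RefSeq's table of windows from 250 bases before to 50 after a start holds 7 for Bdnf. None holds the full element on either strand, and 1 holds the half-site, as CGTCA. Over all 32851 windows of the table the full element is in 1.79% and the half-site in 20.81%. The Bdnf window with the half-site is shown, since CREB and its partners are among the genes followed below, beside the window of Ntrk2, which holds neither and belongs to the gene with the called differences. The half-site is in capitals and the rest in lower case, on the plus strand of GRCm38.p6. A match of letters is a description and no evidence of binding.
Bdnf window at chr2:109692186-109692485: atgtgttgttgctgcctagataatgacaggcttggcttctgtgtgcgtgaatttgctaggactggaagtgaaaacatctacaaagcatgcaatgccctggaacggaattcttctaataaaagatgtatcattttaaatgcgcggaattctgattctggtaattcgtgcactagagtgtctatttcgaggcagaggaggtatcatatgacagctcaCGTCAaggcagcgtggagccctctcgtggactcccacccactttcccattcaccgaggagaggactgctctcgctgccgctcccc
Ntrk2 window at chr13:58806319-58806618: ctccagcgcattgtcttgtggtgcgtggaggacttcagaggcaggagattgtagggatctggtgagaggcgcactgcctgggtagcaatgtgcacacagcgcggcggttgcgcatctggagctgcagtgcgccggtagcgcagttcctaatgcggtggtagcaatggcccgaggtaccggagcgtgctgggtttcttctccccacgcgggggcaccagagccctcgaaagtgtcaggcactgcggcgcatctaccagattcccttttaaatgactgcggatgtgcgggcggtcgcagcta

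The leading Bdnf probe set, 1422168_a_at, whose suffix marks probes shared by several transcripts of 1 gene, was lower on all 3 striatal arrays of inflexible drinkers than on all 3 of light drinkers, but the difference did not pass. It had 3.93, 4.20 and 3.98 in striatum of inflexible drinkers and 4.33, 4.50 and 4.56 in striatum of light drinkers, with means of 4.04 ± 0.15 and 4.46 ± 0.12. The difference was -0.42 ± 0.20, or 0.745-fold, with an unadjusted p of 0.0628 and an adjusted p of 1.00. In prefrontal cortex it had 4.57, 3.94 and 4.60 in inflexible drinkers and 4.40, 3.80 and 4.38 in light drinkers. The second array of each prefrontal group stood low, both are high-control arrays, and the classes overlapped. Both also had the widest gap between the 3' and 5' actin control probe sets, 2.58 and 2.75, against 2.07 to 2.49 on the other arrays. Whether the Bdnf values follow that gap was not tested. The prefrontal difference was 0.17 ± 0.20 (adjusted p = 0.996), with means of 4.37 ± 0.37 in inflexible and 4.19 ± 0.34 in light drinkers. From high to low the group means ran light striatum, inflexible prefrontal cortex, light prefrontal cortex, inflexible striatum, and none of the differences between groups that share a region or a class passed the test. Striatum minus prefrontal cortex was -0.33 ± 0.20 in inflexible drinkers (adjusted p = 0.875) and 0.27 ± 0.20 in light drinkers (adjusted p = 0.809). The striatal minus the prefrontal drinking difference was -0.60 ± 0.29 (adjusted p = 0.955).

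These values move with the level of the hybridisation controls. The leading probe set averaged 0.46 lower on the 5 high-control than on the 7 low-control arrays. Within the low-control arrays the striatal drinking difference was -0.32, from 1 inflexible and 2 light arrays, and within the high-control arrays it was -0.38, from 2 inflexible and 1 light array. The prefrontal difference was 0.19 within the low-control and 0.14 within the high-control arrays. A fit of the 7 low-control arrays alone called 3 contrasts of this probe set. They were the prefrontal drinking difference (0.19, adjusted p = 0.0460), the difference between regions in inflexible drinkers (-0.38, adjusted p = 0.0285) and the difference between the drinking differences (-0.51, adjusted p = 0.0359). The striatal group of inflexible drinkers has 1 array in that fit. Within the high-control arrays the difference between regions in inflexible drinkers was 0.02 (adjusted p = 0.947), and with the control level as a block on all arrays it was -0.19 (adjusted p = 0.429), against -0.33 without the block.

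The other Bdnf probe set, 1422169_a_at, had 3.91, 3.89 and 4.14 in striatum of inflexible drinkers and 4.24, 4.12 and 3.99 in striatum of light drinkers. In prefrontal cortex it had 3.98, 4.46 and 4.28 in inflexible drinkers and 4.04, 4.62 and 4.11 in light drinkers. Here the second prefrontal arrays stood high, opposite to the leading probe set, and over all arrays it averaged 0.21 higher on the high-control arrays. Its drinking difference was -0.14 ± 0.16 in striatum and -0.02 ± 0.16 in prefrontal cortex, with adjusted p of 1.00 in each.

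Since the Bdnf probe sets shifted in opposite directions with the control level, their mean was also taken per array, a choice made after their values were seen. It was 3.92, 4.05 and 4.06 in striatum of inflexible drinkers, against 4.29, 4.31 and 4.27 in striatum of light drinkers. In prefrontal cortex it was 4.28, 4.20 and 4.44 in inflexible drinkers and 4.22, 4.21 and 4.25 in light drinkers. Every array of inflexible striatum was thus below every array of the other groups. Among the others, all light striatal arrays lay above all light prefrontal arrays, with means of 4.29 and 4.23. That difference was not called (adjusted p = 0.778 with limma). Fitted with the mean of every gene's probe sets over 18193 genes, Bdnf was lower in striatum than in prefrontal cortex of inflexible drinkers, with a difference of -0.29 ± 0.06 (adjusted p = 0.0331, beside 1.7% of genes called). That call was kept in 3 of the 12 fits that left out 1 array and lost in 9, with values from -0.35 to -0.23 and adjusted p up to 0.123. It was also lost with the replicate number as a block (-0.29, adjusted p = 0.0548), within the low-control arrays (-0.31, adjusted p = 0.118) and within the high-control arrays (-0.21, adjusted p = 0.487), and kept with the control level as a block (-0.27, adjusted p = 0.0212). The striatal drinking difference was -0.28 ± 0.06 with an unadjusted p of 0.000634, and its adjusted p of 0.256 missed the threshold (0.022% of genes called). The difference between the drinking differences was -0.36 ± 0.08 (adjusted p = 0.115, 0.632% of genes called). In prefrontal cortex the classes differed by 0.08 ± 0.06 (adjusted p = 0.848, 1.35% of genes called).

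**Figure D2:**
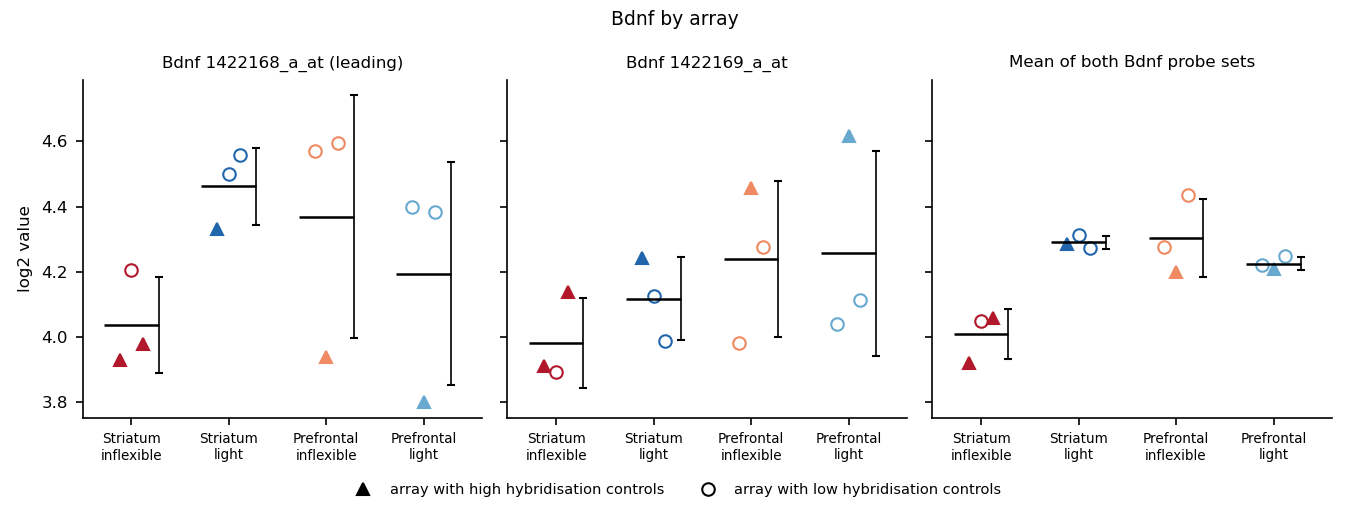
Log2 values (y axis) of the leading Bdnf probe set, the other Bdnf probe set and the mean of both on each array, by group (x axis), with triangles for high-control and circles for low-control arrays. Lines and bars give the mean and SD of 3 arrays. The mean of both lies at 3.92 to 4.06 in inflexible striatum and at 4.20 to 4.44 on the other 9 arrays.

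Ntrk2, the gene of the BDNF receptor TrkB, lies on chromosome 13 at positions 58806472 to 59133970 of GRCm38.p6. Its leading probe set, 1458622_at, had 6.51, 6.71 and 6.49 in striatum of inflexible drinkers, against 6.92, 7.00 and 6.97 in their prefrontal cortex. In light drinkers it had 6.46, 6.59 and 6.48 in striatum, against 7.18, 7.34 and 7.16 in prefrontal cortex. Every striatal array was below every prefrontal array. In light drinkers striatum minus prefrontal cortex was -0.72 ± 0.07, or 0.608-fold (adjusted p = 0.000335), and this was called in all 12 fits that left out 1 array, with adjusted p up to 0.00251. In inflexible drinkers it was -0.39 ± 0.07, or 0.762-fold (adjusted p = 0.0339). That call was kept in 4 of 12 such fits and lost in 8, with values from -0.46 to -0.35 and adjusted p up to 0.140. Within the low-control arrays the difference between regions was -0.64 in light drinkers (adjusted p = 0.00289) and -0.23 in inflexible drinkers, where the call was lost (adjusted p = 0.164). Within the high-control arrays it was -0.88 in light and -0.50 in inflexible drinkers, and neither was called (adjusted p = 0.352 and 0.394). With the control level as a block both calls were kept (adjusted p = 0.000315 in light and 0.0295 in inflexible drinkers).

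In prefrontal cortex the leading Ntrk2 probe set was lower on all 3 arrays of inflexible drinkers than on all 3 of light drinkers, with means of 6.96 ± 0.04 and 7.23 ± 0.10. The difference of -0.26 ± 0.07, or 0.832-fold, had an unadjusted p of 0.00328 and an adjusted p of 0.173, so it was not called. The replicate numbers were taken as pairs in prefrontal cortex, though the check given under the processing cannot tell pairs from a shared control level. With the number as a limma block the adjusted p was 0.0369 over 12 arrays and 0.0673 over the 6 prefrontal arrays alone. The block over 12 arrays also groups striatal arrays by number, which were not taken as pairs. With the control level as the limma block instead, the adjusted p was 0.107. In striatum the classes overlapped, with means of 6.57 ± 0.12 in inflexible and 6.51 ± 0.07 in light drinkers and a difference of 0.06 ± 0.07 (adjusted p = 1.00). The drinking differences of the regions differed by 0.32 ± 0.10 (unadjusted p = 0.00759, adjusted p = 0.400). The order of the group means was thus light prefrontal cortex, inflexible prefrontal cortex, inflexible striatum and light striatum, and of these neighbours only the prefrontal and striatal inflexible groups differed by a called amount.

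The other Ntrk2 probe sets did not all follow the leading one. 1435196_at had 6.00, 5.90 and 5.92 in striatum of inflexible drinkers, against 5.63, 5.86 and 5.78 in striatum of light drinkers. In prefrontal cortex the order was opposite, with 5.70, 5.85 and 5.78 in inflexible drinkers and 5.97, 6.06 and 5.98 in light drinkers. Neither pair of groups overlapped. The drinking difference was 0.18 ± 0.06 in striatum (unadjusted p = 0.0150, adjusted p = 1.00) and -0.23 ± 0.06 in prefrontal cortex (unadjusted p = 0.00455, adjusted p = 0.207). Their difference, 0.41 ± 0.09, had an unadjusted p of 0.000948 and an adjusted p of 0.135, the smallest for any member in that contrast. Striatum minus prefrontal cortex was -0.25 ± 0.06 in light drinkers (adjusted p = 0.0684) and 0.16 ± 0.06 in inflexible drinkers (adjusted p = 0.536). The light-drinker value was called without the second striatal light array (adjusted p = 0.0463) and with the control level as a block (adjusted p = 0.0497).

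Other Ntrk2 probe sets with a mean of at least 4 varied more within groups. 1435305_at ran from 5.51 to 6.33 in inflexible and from 5.78 to 6.24 in light striatum, and from 5.81 to 6.68 in inflexible and from 6.09 to 7.07 in light prefrontal cortex. It averaged 0.76 lower on the high-control arrays. Striatum minus prefrontal cortex was -0.64 ± 0.32 in light drinkers (adjusted p = 0.528), with an adjusted p of 0.00762 once the control level was a block. Its prefrontal drinking difference, -0.35 ± 0.32 (adjusted p = 0.979), had an adjusted p of 0.0383 in the fit of the 6 prefrontal arrays with the replicate number as a block. 1437560_at was lower on all striatal than on all prefrontal arrays of light drinkers, with a difference of -0.49 ± 0.18 (adjusted p = 0.255). 1420838_at differed by 0.06 or less in each of the 4 comparisons, with group means from 5.77 to 5.83. The 3 remaining Ntrk2 probe sets had means from 2.87 to 3.38 and no adjusted p under 0.05 in any contrast. Averaged over its 8 probe sets, Ntrk2 differed between striatum and prefrontal cortex by -0.28 in light drinkers (adjusted p = 0.128, 5.9% of genes called) and by -0.13 in inflexible drinkers (adjusted p = 0.811). That mean includes the 3 dim probe sets. With the control level as a block, 3 member probe sets were called between regions in light drinkers, all of Ntrk2: 1458622_at, 1435305_at and 1435196_at (-0.25, adjusted p = 0.0497).

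**Figure D3:**
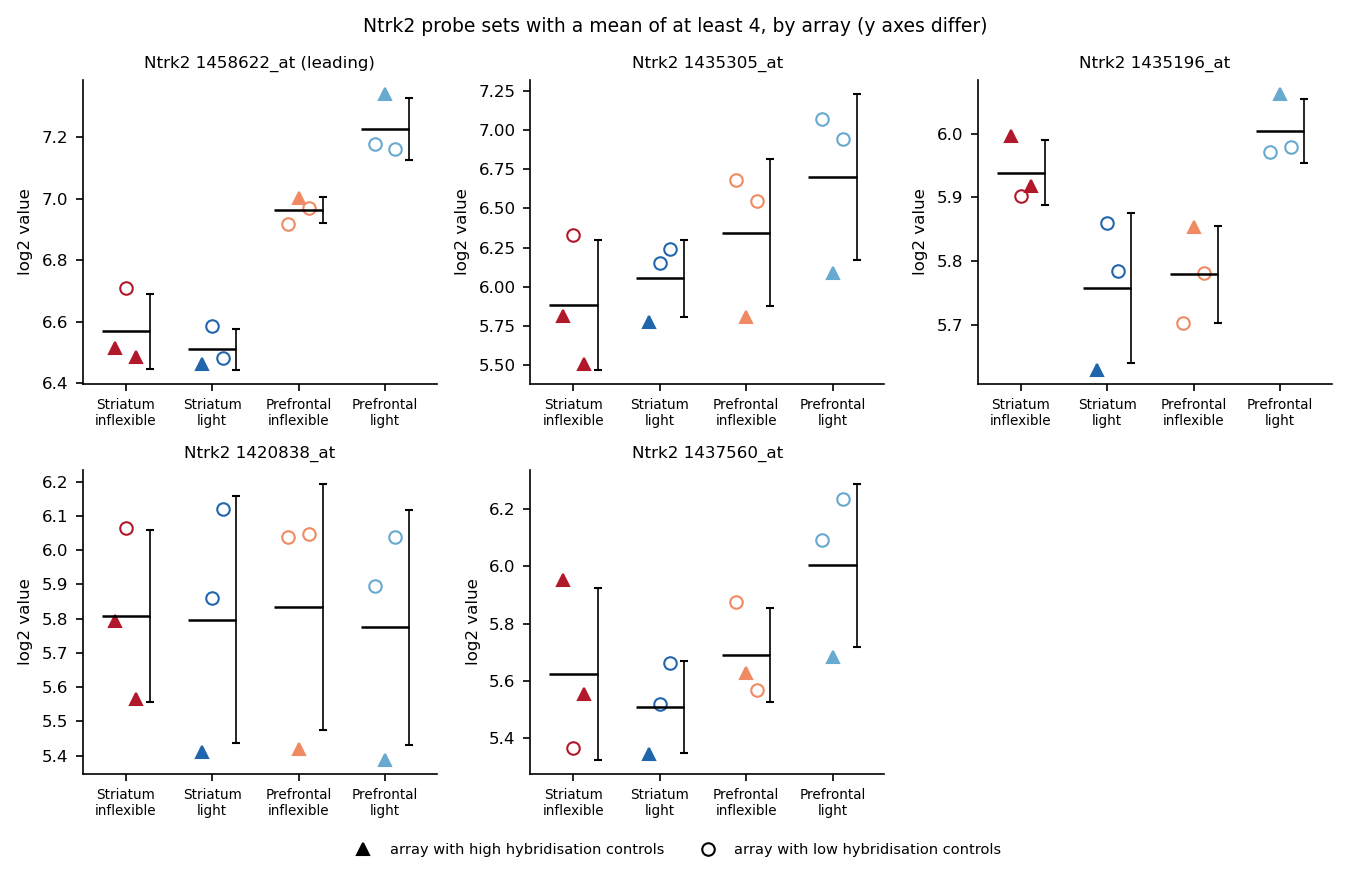
Log2 values (y axes, which differ) of the 5 Ntrk2 probe sets with a mean of at least 4, by group (x axes), on each array, with the mean and SD of 3 arrays and triangles for high-control arrays. The leading probe set separates striatum (6.46 to 6.71) from prefrontal cortex (6.92 to 7.34) on every array, and 1435196_at has opposite orders of the drinking classes in the regions.

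Which Ntrk2 probe sets read the short and which the long form of TrkB is not given in the tables used here, so the forms could not be compared by name. The ratio of the leading probe set to each other one on the same array was compared between regions instead, for 4 pairs chosen after the values were seen. A ratio within an array shows unequal change and not which of the pair changed. Relative to 1435196_at, the log2 ratio was 0.52, 0.81 and 0.57 in inflexible and 0.83, 0.73 and 0.70 in light striatum, against 1.21, 1.15 and 1.19 in inflexible and 1.21, 1.28 and 1.18 in light prefrontal cortex. Every striatal array lay below every prefrontal array. The difference, striatum minus prefrontal cortex, was -0.51 by a two-sided exact permutation test within drinking class (p = 0.005, the smallest that its 400 permutations can give, adjusted over 4 pairs p = 0.02). It was -0.55 in inflexible and -0.47 in light drinkers, and -0.45 within the low-control and -0.57 within the high-control arrays. Relative to 1420838_at the difference was -0.55 (exact permutation p = 0.01, adjusted p = 0.02), with -0.47 within the low-control and -0.87 within the high-control arrays. Relative to 1437560_at it was -0.28 and did not pass (exact permutation p = 0.145, adjusted p = 0.193). Without the third light prefrontal array that p was 0.045. For this pair the difference was -0.04 within the low-control and -0.65 within the high-control arrays. Relative to 1435305_at the regions differed by -0.00 (exact permutation p = 0.99). There the difference was 0.10 within the low-control and -0.43 within the high-control arrays. The value near 0 thus does not show that 1435305_at followed the leading probe set.

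**Figure D4:**
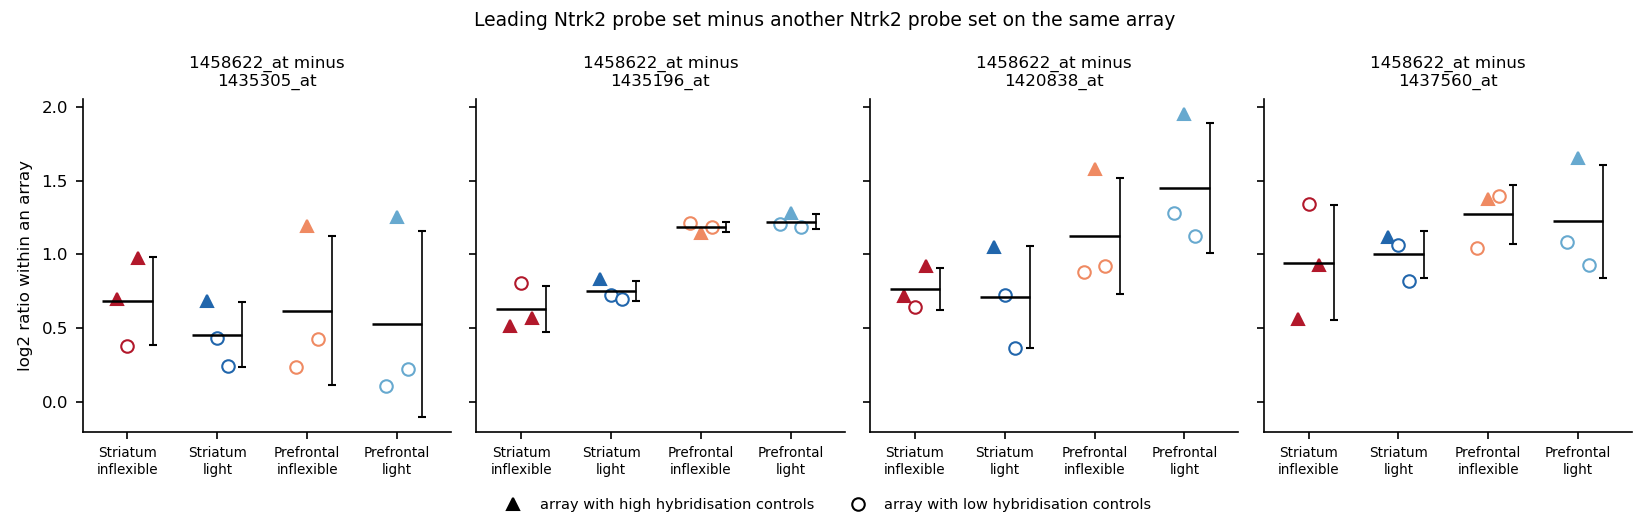
Log2 ratio (y axis) of the leading Ntrk2 probe set to each of 4 other Ntrk2 probe sets on the same array, by group (x axis), with the mean and SD of 3 arrays. The ratio to 1435196_at lies at 0.52 to 0.83 on striatal and at 1.15 to 1.28 on prefrontal arrays, while the ratio to 1435305_at overlaps in all groups.

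Markers of astrocytes, the cells known for the short form, are set beside the Ntrk2 values. All 10 listed astrocyte genes were measured and none was called between drinking classes, beside 0.022% of genes in striatum and 1.04% in prefrontal cortex. Their summed linear level was 1370 to 1400 in inflexible and 1270 to 1310 in light striatum, and 1400 to 1540 in inflexible and 1290 to 1410 in light prefrontal cortex. Between regions 2 of the 10 were lower in striatum of light drinkers, beside 2.5% of genes called lower. Of 9 measured cortical markers, 2 were called lower and 0 higher in striatum of inflexible drinkers than in their prefrontal cortex. Of all genes 0.643% and 0.561% were so called. In light drinkers 3 were lower and 1 higher, beside 2.5% and 2.18% of genes. The summed linear level of the 9 overlapped between regions. It was 324 to 819 and 366 to 788 in inflexible and light striatum, against 431 to 858 and 531 to 1000 in prefrontal cortex. Slc17a7, on the same list, averaged 5.87 ± 1.99 and 5.17 ± 1.81 in inflexible and light striatum. In prefrontal cortex it averaged 5.25 ± 1.97 and 5.60 ± 1.70. Tbr1, with the smallest p of the 9 in both classes, differed by -1.09 ± 0.09 in inflexible and -1.23 ± 0.09 in light drinkers. Cux2, of upper cortical layers, averaged 3.96 ± 0.33 and 3.73 ± 0.23 in inflexible and light striatum, against 5.34 ± 0.19 and 6.29 ± 0.21 in inflexible and light prefrontal cortex. Neurod6, another cortical marker, averaged 6.25 ± 0.14 and 6.75 ± 0.15 in inflexible and light striatum. In the same classes' prefrontal cortex it averaged 6.46 ± 0.03 and 5.97 ± 0.10. It was thus not absent from the striatal samples. It was the 1 called higher in striatum of light drinkers (0.79 ± 0.09, adjusted p = 0.000756 with limma). The part of any of these in the Ntrk2 values was not tested.

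Ntrk3, the gene of the NT-3 receptor TrkC, lies on chromosome 7 at positions 78179986 to 78581034 and had no called difference in any of its 8 probe sets. Its leading probe set, 1433825_at, had 4.89, 5.12 and 4.56 in inflexible and 4.93, 5.34 and 5.38 in light striatum. In prefrontal cortex it had 5.35, 4.60 and 5.25 in inflexible drinkers and 5.23, 4.62 and 5.32 in light drinkers. All groups overlapped, and the probe set averaged 0.56 lower on the high-control arrays, among them the low second prefrontal arrays. The drinking difference was -0.35 ± 0.25 in striatum (adjusted p = 1.00) and 0.01 ± 0.25 in prefrontal cortex (adjusted p = 1.00).

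All 4 Ntrk3 probe sets with a mean of at least 4 had lower means in striatum of inflexible than of light drinkers. The differences ran from -0.35 to -0.18 and none passed. All 4 also averaged lower on the high-control arrays, which were 2 of the 3 inflexible and 1 of the 3 light striatal arrays. With the control level as a block the differences ran from -0.18 to -0.07. Within the low-control arrays they ran from -0.55 to -0.24. Within the high-control arrays they were -0.20 for 1433825_at, -0.22 for 1455917_at, 0.30 for 1447723_at and 0.01 for 1422329_a_at. For 1455917_at the striatal classes did not overlap, with 4.63, 4.60 and 4.55 in inflexible and 4.81, 4.85 and 4.85 in light drinkers, a difference of -0.24 ± 0.12 (unadjusted p = 0.0809, adjusted p = 1.00). For 1422329_a_at the difference was likewise -0.24 ± 0.13, with overlap. In prefrontal cortex 2 of the 4 were higher and 2 lower in inflexible drinkers. Between regions the largest value was that of 1447723_at, 0.53 ± 0.23 higher in striatum of light drinkers (unadjusted p = 0.0408, adjusted p = 0.388). The 4 dimmer Ntrk3 probe sets had means from 2.95 to 3.31. One of them, 1425070_at, was higher on all 3 prefrontal arrays of inflexible than of light drinkers, by 0.09 ± 0.04 (unadjusted p = 0.0307, adjusted p = 0.550).

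Ngfr and Gdnf were measured near the bottom of the scale. Ngfr, on chromosome 11 at positions 95568818 to 95587698, had 3 probe sets with means from 2.89 to 2.99, and Gdnf, on chromosome 15 at positions 7810048 to 7837580, had 1 with a mean of 2.92, all below the array medians. At such values a difference between groups may be beyond what these arrays can show. Their differences between drinking classes ran from -0.05 to 0.05 over both regions and none was called. For the Ngfr probe set 1450177_at the classes did not overlap in either region: it had 2.90, 2.90 and 2.94 in inflexible and 2.87, 2.87 and 2.87 in light striatum, and 2.88, 2.86 and 2.87 in inflexible and 2.90, 2.97 and 2.89 in light prefrontal cortex. Gdnf averaged 2.94 ± 0.02 in inflexible and 2.93 ± 0.04 in light striatum, and 2.88 ± 0.02 in inflexible and 2.93 ± 0.12 in light prefrontal cortex.

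Further genes of the pathway were counted from lists, with 1 probe set per gene and 18193 genes in all. Among other neurotrophin ligands and receptors 8 genes were analysed, and none was called between drinking classes, beside 0.022% of genes in striatum and 1.04% in prefrontal cortex. Their median difference was 0.01 in striatum and 0.02 in prefrontal cortex, beside 0.00 over all genes in each. Sorcs2, a sortilin relative that binds p75 and precursor BDNF, was higher in striatum than in prefrontal cortex of light drinkers (4.01 ± 0.10 and 3.55 ± 0.04, 0.46 ± 0.07, adjusted p = 0.00717), as 1 of 8 genes beside 2.18% called higher. Its prefrontal drinking difference was 0.27 ± 0.07 (adjusted p = 0.204).

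All 10 genes of the GDNF family list were measured. None was called between drinking classes, beside 0.022% of genes in striatum and 1.04% in prefrontal cortex. The receptor subunit Gfra2, which binds neurturin, had the lowest p between regions of the 10, with means of 4.39 ± 0.17 and 4.45 ± 0.21 in inflexible and light striatum, against 5.71 ± 0.14 and 6.07 ± 0.30 in inflexible and light prefrontal cortex. Its difference, striatum minus prefrontal cortex, was -1.32 ± 0.16 in inflexible drinkers (adjusted p = 0.00623) and -1.61 ± 0.16 in light drinkers (adjusted p = 0.000433), as 1 of 10 genes beside 0.643% and 2.5% called lower. The suffix of its probe set marks probes that can also match other genes. Gfra1, the subunit that binds GDNF, differed by 0.38 ± 0.11 between striatum and prefrontal cortex of light drinkers (adjusted p = 0.125) and in prefrontal cortex by 0.30 ± 0.11 between inflexible and light drinkers (adjusted p = 0.453). Sdc3, a syndecan to which GDNF binds, differed there by -0.31 ± 0.09 (adjusted p = 0.290).

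Of 15 genes that process neurotrophin precursors or inhibit that processing, 13 were measured. None was called between drinking classes, beside 0.022% of genes in striatum and 1.04% in prefrontal cortex. Serpini1, the gene of neuroserpin, a neuronal inhibitor of tissue plasminogen activator, was named after its values were seen as the 1 of 13 called between regions, beside 0.643% of genes called lower in inflexible and 2.5% in light drinkers. It averaged 6.60 ± 0.20 and 6.71 ± 0.31 in inflexible and light striatum, against 7.59 ± 0.11 and 7.62 ± 0.09 in inflexible and light prefrontal cortex. The differences were -0.99 ± 0.15 (adjusted p = 0.0163) and -0.91 ± 0.15 (adjusted p = 0.00776).

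Of 47 adaptors and signalling proteins of the Trk and p75 receptors 36 were measured. None was called between drinking classes, beside 0.022% of genes in striatum and 1.04% in prefrontal cortex. The medians of the 36 were 0.03 in striatum and -0.03 in prefrontal cortex. Among them Rapgef1, an exchange factor for Rap1, had the smallest p in prefrontal cortex (-0.24 ± 0.06, adjusted p = 0.158). It was the 1 of 36 called lower in striatum than in prefrontal cortex of light drinkers, beside 2.5% of genes (-0.30 ± 0.06, adjusted p = 0.0270). Rps6ka5, the gene of the kinase MSK1, which phosphorylates CREB, was the 1 called higher there, beside 2.18% of genes (4.52 ± 0.14 and 3.77 ± 0.08, 0.76 ± 0.13, adjusted p = 0.0109). Its prefrontal drinking difference was 0.46 ± 0.13 (adjusted p = 0.237).

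Of 19 regulators of Bdnf transcription 18 were measured. In prefrontal cortex 1 was called lower in inflexible drinkers, beside 0.462% of genes, and the median was -0.16. In striatum none was called, beside 0.022% of genes, and the median was 0.02. The called gene was Bhlhe40, a basic helix-loop-helix repressor, with 5.72 ± 0.09 in inflexible and 6.24 ± 0.13 in light drinkers (-0.52 ± 0.07, adjusted p = 0.00998). Arnt2, the partner of the activity factor NPAS4, differed by -0.38 ± 0.12 (adjusted p = 0.291) and Mef2c by -0.60 ± 0.20 (adjusted p = 0.367). In striatum relative to prefrontal cortex of light drinkers these 3 genes fell, as the 3 of 18 called, beside 2.5% called lower. The differences were -1.14 ± 0.07 for Bhlhe40, -1.13 ± 0.12 for Arnt2 and -2.30 ± 0.20 for Mef2c, with adjusted p from 2.79e-05 to 0.000529. In inflexible drinkers 2 of 18 fell, beside 0.643% called lower, with differences of -0.63 ± 0.07 for Bhlhe40 (adjusted p = 0.00450) and -1.39 ± 0.20 for Mef2c (adjusted p = 0.0133). Arnt2 differed by -0.59 ± 0.12 (adjusted p = 0.0619).

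Genes known to be induced by BDNF or by neuronal activity were the pathway list, of 6, with most calls between drinking classes. Of 26 measured, 6 fell in prefrontal cortex of inflexible relative to light drinkers, beside 0.462% of all genes called lower. In striatum none was called, beside 0.022% of genes. The list was chosen with results of these data known, so its direction is not independent evidence. The median difference of the 26 was -0.31 in prefrontal cortex and 0.09 in striatum, beside 0.00 over all genes in each, and 21 had a negative difference in prefrontal cortex against 7 in striatum. Egr2, an immediate early transcription factor, averaged 3.59 ± 0.19 in inflexible and 4.47 ± 0.13 in light prefrontal cortex (-0.88 ± 0.10, adjusted p = 0.00422). Egr1, of the same family, averaged 8.34 ± 0.09 in inflexible and 9.00 ± 0.02 in light prefrontal cortex (-0.66 ± 0.08, adjusted p = 0.00465). Arc, whose product removes AMPA receptors from synapses, averaged 4.91 ± 0.10 in inflexible and 5.96 ± 0.07 in light prefrontal cortex (-1.05 ± 0.13, adjusted p = 0.00616). The other 3 called, named after their values were seen, were Crh (-0.73 ± 0.13), Fos (-0.60 ± 0.11) and Npy (-0.59 ± 0.11), with adjusted p from 0.0407 to 0.0473. In striatum Egr1 differed by 0.41 ± 0.08 (adjusted p = 0.317) and Vgf, a secreted neuropeptide precursor, by 0.53 ± 0.14 (adjusted p = 0.748). The striatal minus the prefrontal drinking difference was called for Arc (1.14 ± 0.19), Egr1 (1.07 ± 0.11) and Egr2 (0.94 ± 0.15), as 3 of 26 higher beside 0.165% of genes, with adjusted p from 0.00524 to 0.0458. Neither Bdnf probe set was called in any of the 5 contrasts.

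**Figure D5:**
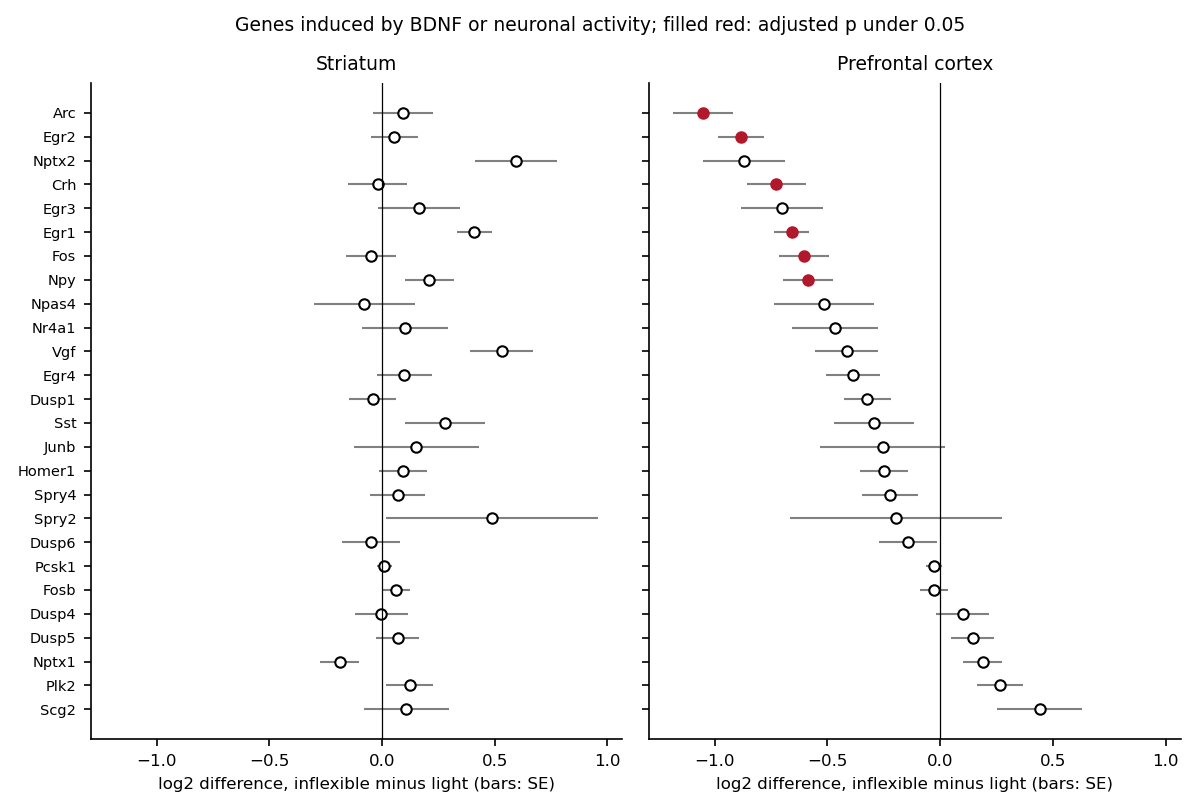
Differences between inflexible and light drinkers (x axis, log2, with SE bars) in striatum and in prefrontal cortex for 26 genes induced by BDNF or neuronal activity (y axis, ordered by the prefrontal value). The 6 filled red points, all in prefrontal cortex from -1.05 to -0.59, were called lower, and no striatal point was called.

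The genes whose pattern over the 12 arrays was most like the leading Bdnf probe set were found among 6592 named genes with a mean of at least 4. Likeness was the root mean square difference between log2 values after each gene was centred on its own mean. The nearest were Ddt (0.108), Mrps10 (0.112), Idh3b (0.115), Cep20 (0.117) and Wdr73 (0.123), beside a median of 0.285 over all candidates and a spread of the Bdnf probe set about its own mean of 0.274. Ddt, for example, averaged 4.79 and 5.00 in inflexible and light striatum and 5.04 and 4.94 in inflexible and light prefrontal cortex, the same order of groups within the striatum and the prefrontal cortex as Bdnf. For the leading Ntrk2 probe set the nearest were Gda (0.078), Smarca2 (0.082), Wls (0.084), Tmem65 (0.094) and D430041D05Rik (0.097), beside a median of 0.352 and its own spread of 0.303. Gda, the gene of guanine deaminase, averaged 7.15 and 7.07 in inflexible and light striatum, against 7.55 and 7.70 in inflexible and light prefrontal cortex. The arrays compared share groups and control levels, so likeness describes these 12 arrays.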

How the data were processed

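Gene expression was measured in striatum and prefrontal cortex on 12 arrays, 3 for each of 4 groups taken from the labels. The authors deposited log2 values per probe set, made with RMA and the affy package per the submitters' processing notes, which give no version. No source states the log base, and base 2 was assumed from their range of 2.76 to 12.17. Of 45101 probe sets 64 controls were left out, 34945 had 1 gene symbol, 932 several and 9160 none, and all 22 members' gene IDs matched RefSeq. Of the table's columns 0 were left unmapped. Group means were fitted to 45037 probe sets over all 12 arrays with limma 3.58.1 (lmFit and eBayes, R 4.3.3, 8 residual degrees of freedom), and p-values were adjusted over all of them by Benjamini and Hochberg's method. The 5 contrasts were inflexible minus light in each region, their difference, and striatum minus prefrontal cortex in each class. The number of arrays limits the precision, and depth does not apply to arrays. The fit was tested on simulated data.

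The members and gene lists were chosen with earlier results of these data known. Named were all member probe sets, and from each list up to 3 genes with the smallest prefrontal and up to 2 with the smallest striatal drinking p, other names being marked as chosen later. From each array's deviations from its group mean, same-numbered prefrontal arrays of inflexible and light drinkers correlated at 0.741, 0.849 and 0.622. Probe sets with a mean of at least 4 were used, and the numbers were taken as pairs there. Number 2 is the high-control array in both groups, so the check cannot tell pairs from a shared control level. Same-numbered striatal arrays correlated at 0.250, 0.262 and -0.637 and were not paired. Only the last of these had unlike control levels. Across regions the third light arrays, both low-control, correlated at 0.602. All other same-numbered arrays across regions had unlike control levels and correlated at -0.769 to -0.120. No label says that a number marks a shared day or batch. Alternatives were the replicate block, the control level as a block, each control level alone, quantile normalisation, probe sets with a mean of at least 4, 2 groups alone, all probe sets of a gene averaged, and leaving out each array.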

Additional observations from a re-analysis of the deposited data

Results flagged for a closer look

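Inflexible and light drinkers were ordered in opposite ways in the regions, with no overlap of their arrays in either, for a pair of member probe sets. For Ntrk2 1435196_at the striatal minus the prefrontal drinking difference was 0.41 on the log2 scale, made up of 0.18 in striatum and -0.23 in prefrontal cortex. That difference had an unadjusted limma p of 0.000948 and an adjusted p of 0.135. For Ngfr 1450177_at it was 0.0938, made up of 0.05 and -0.05, with an adjusted p of 0.746, at values near 2.9 where the arrays resolve little. Neither passed the threshold.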

How the results depend on the processing

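Under the alternatives, 1339 of 1378 single differences kept their direction and side of the threshold or had a sign change that missed an unadjusted p of 0.05 under both settings. Of the rest, 27 lost a call and 11 gained one. A sign change occurred in 102, and 1 of these was past that p: Ntrk3 1455917_at in inflexible drinkers, striatum minus prefrontal cortex, was -0.13 on the low-control arrays against 0.03 on all arrays.

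Counts of called probe sets moved more. With the replicate number as a block, 206 probe sets were called for drinking in prefrontal cortex, 1 of them a member (372 and 0 without it), and 51 for the difference between the regions' drinking differences (141). In the 6 prefrontal arrays alone, added after the data were seen, the block gave 899 and 1. Beside the values given with each probe set, the block changed no other member's call. In striatum, where the numbers were not taken as pairs, it gave 4 (5 without it). With the control level as a block the counts were 34 for drinking in striatum, 1119 for drinking in prefrontal cortex, 443 for their difference, 972 for regions in inflexible and 3152 for regions in light drinkers, 3 of these members. The low-control arrays alone gave 0 for drinking in striatum, 1243 for prefrontal cortex with 1 member, 1 member for their difference, and 3775 with 2 members for regions in light drinkers. The high-control arrays alone gave 0 in all 5 contrasts, with 1 residual degree of freedom. Over probe sets with a mean of at least 4 the counts were 2 for striatum and 215 for prefrontal cortex, and 0 members for regions in inflexible drinkers. In fits of 2 groups alone they were 1 for striatum, 198 for prefrontal cortex, and 61 with 0 members for regions in inflexible drinkers.

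Leaving out 1 array at a time gave 2 to 9 for striatum, 157 to 394 for prefrontal cortex, 62 to 161 for their difference, 158 to 404 with 0 to 1 members for regions in inflexible drinkers, and 942 to 1607 with 1 to 2 members for regions in light drinkers. No member was called for drinking in either region, or for the striatal minus the prefrontal drinking difference, in the fits that left out 1 array. Fits with 1 array in a group assume that it varies like the others, and why the counts moved was not tested. The dim probe sets limit what can be said of Ngfr and Gdnf.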
